A study of Drosophila melanogaster with 12 samples.

Results

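The heads of flies that made Aβ42 together with Yip7 in their neurons were compared with the heads of healthy control flies, to find which expression differences of the Aβ42 state were still measurable when Yip7 was co-expressed. The libraries were chosen by their genotype labels: 3 AD + Yip7 and 3 Control libraries, 6 of the 12 in the series. All genes of the deposited count table that passed a count filter were described, 10577 of 14162 genes. The Control flies (nSyb>w1118) carried the pan-neuronal driver nSyb-Gal4 over the w1118 background and no UAS transgene. The AD + Yip7 flies (nSyb>Abeta42+yip7) carried the same driver, a UAS transgene for human Aβ42 and a UAS transgene for the fly protease Yip7. According to the study, the AD flies expressed the Arctic form of Aβ42, a mutant prone to aggregation, fused to the secretion signal of the fly protein Argos. AD flies (nSyb>Abeta42; 3 libraries) had Aβ42 without the Yip7 transgene and serve here as the second reference, and AD + Yip7ΔS (nSyb>Abeta42+yip7_S; 3 libraries), made with a Yip7 variant that lacks the N-terminal segment, is used only where stated. All flies were mated females kept at 29 °C, and each library came from pooled heads. The labels give an age of 10 days for 11 libraries and 2 weeks for Control replicate 3.

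nSyb-Gal4 is active in neurons, so the glia, fat body, hemocytes, muscle and cuticle cells of a head did not carry the transgene products unless they took them up. No group had Yip7 without Aβ42, and the AD label names no second UAS transgene in place of Yip7. In the comparisons with Control and with AD, an effect of the Yip7 protein therefore cannot be told apart from an effect of the additional transgene, its insertion site or its genetic background. According to the study, AD + Yip7ΔS carried a second transgene at the same site, made with the same crosses. Its comparison with AD + Yip7 was thus designed to differ in the N-terminal segment. The study also detected less of the truncated protein, so the segment and the amount of protein cannot be told apart there. Whether the 2 lines differ elsewhere in the genome was not tested.

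Aβ42 is the aggregation-prone peptide that accumulates in the plaques of Alzheimer's disease, and fly neurons that make it lose function with age. Yip7 belongs by sequence to the chymotrypsin-like serine proteases that insects use to digest food in the gut. Cells that handle misfolded protein raise chaperones in the cytosol through heat shock factor, and chaperones of the endoplasmic reticulum (ER) through the unfolded protein response, with Ire1 and PEK (the fly PERK) as sensors.

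Each library held between 38064884 and 41737332 counted reads. At this depth 3 reads correspond to between 0.0710 and 0.0795 CPM (reads scaled for library depth), and a level below that could not be told from 0; such floors and all counting intervals below cover counting error only. Control replicate 1 stood apart from the other Controls. Its counts differed from those of Control 2 and Control 3 with a chi-square per degree of freedom of 175 and 140, against 20.4 between Control 2 and Control 3, and it had fewer hemocyte transcripts. Control 2 alone had high antimicrobial peptide transcripts. The first principal component of all 12 libraries took 41.5% of the variance. It placed the Controls between -57.6 and -33.3 and AD between 37.2 and 38.9. AD + Yip7, at 2.09, 17.8 and 4.17, and AD + Yip7ΔS, at -5.89, 15.7 and -3.32, both lay between Control and AD. No pair of replicates agreed within sampling noise. The sources call the replicates biological triplicates without saying how the flies were grouped, so p-values measure the spread between these libraries.

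The transgene check was ambiguous for yip7 itself. yip7 was at 5.97, 0 and 6.07 CPM in Control, 157, 159 and 94.2 CPM in AD and 135, 173 and 123 CPM in AD + Yip7. All AD + Yip7 libraries were above all Controls (log2 fold change 5.16 ± 0.76 (SE), adjusted p = 0.00060), but so were the AD libraries, which carried no Yip7 transgene by label, and AD + Yip7 did not differ from AD beyond the spread (log2 fold change 0.08 ± 0.62, adjusted p = 0.98). The level of yip7 thus separated both Aβ42 genotypes from Control and did not separate them from each other. The study reports from its other experiments, with qPCR on heads, that Aβ42 induced yip7 transcription. The source of the yip7 reads in these libraries was not tested. The eye pigment transporter gene w, which a mini-white transgene marker would add to, did separate them, with 111, 115 and 108 CPM in Control, 113, 108 and 141 CPM in AD and 213, 221 and 210.0 CPM in AD + Yip7. Every AD + Yip7 library was above every Control and AD library (0.95 ± 0.10 against Control, adjusted p = 4.4e-05; 0.84 ± 0.10 against AD, adjusted p = 0.00076). aos, whose gene encodes Argos and whose signal sequence the Aβ42 transgene borrows, was at 25, 29.2 and 26.8 CPM in Control and 35.9, 40.4 and 36.4 CPM in AD + Yip7 (0.48 ± 0.09, adjusted p = 0.0040).

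Of the 10577 genes, 1541 differed between AD + Yip7 and Control at an adjusted p under 0.05 in edgeR's quasi-likelihood test, 14.6% of those tested. 966 were higher in AD + Yip7 (9.13% of those tested) and 575 were lower (5.44%), so that 62.7% of the called genes were higher, and 51.9% when DESeq2 was run on the 6 libraries alone. Of the genes that differed, 956 of the higher and 561 of the lower had 3 AD + Yip7 libraries that did not overlap the 3 Controls. The difference was at least 2-fold for 385 of the higher and 153 of the lower genes, and the median size among the called genes was 0.72 on the log2 scale. The median log2 fold change over all genes was 0.0023. In the same fit, AD differed from Control at 2750 genes (26.0% of those tested; 14.4% higher and 11.6% lower). AD + Yip7 differed directly from AD at 191 genes (1.81%; 0.945% higher and 0.860% lower), and at 83 to 169 when 1 library was left out. Both comparisons with Control use the 3 Control libraries, so their values are set side by side below and only the direct comparison tests whether AD + Yip7 and AD differ. AD + Yip7 differed from AD + Yip7ΔS at 7 genes (0.0662%). Without Control 2, Control 3 or AD + Yip7 2 the number of genes that differed from Control was 1000, 943 or 934.

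The genes with the smallest p-values included transporter and enzyme genes. Orct2, an organic cation transporter, was at 6.91, 7.01 and 7.87 CPM in Control and 42.2, 43.6 and 46.1 CPM in AD + Yip7, 6.05-fold higher (2.60 ± 0.09, adjusted p = 2.8e-09). CG17264 was at 2.06, 2.46 and 2.28 CPM in Control and 23.6, 21.2 and 21.7 CPM in AD + Yip7 (3.29 ± 0.11, adjusted p = 2.8e-09). Ldh, which encodes lactate dehydrogenase, the enzyme that turns pyruvate into lactate, was at 17.9, 14.7 and 15.2 CPM in Control and 165, 188 and 229.5 CPM in AD + Yip7, 12.2-fold higher (3.61 ± 0.15, adjusted p = 9.5e-09). For these 3 genes the lowest AD + Yip7 library lay far above the highest Control, and the groups did not overlap. Their AD libraries were at 48.1, 46.4 and 47.6 CPM, 22.6, 24.2 and 22.4 CPM and 219.7, 213 and 261 CPM, respectively, and AD + Yip7 did not pass the test against AD for any of them (log2 fold changes -0.11 ± 0.08, -0.06 ± 0.10 and -0.25 ± 0.13). The cytochrome P450 gene Cyp4p2 rose from 3.73, 3.04 and 2.25 CPM to 58.4, 56.9 and 51 CPM (4.20 ± 0.17, adjusted p = 9.5e-09), and the transporter gene MFS3 from 3.38, 2.2 and 1.94 CPM to 38.4, 42.8 and 49.2 CPM (4.12 ± 0.18, adjusted p = 2.2e-08).

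Other genes rose from very low levels in Control. PCNA, the sliding clamp of DNA replication, was at 0.448, 0.362 and 0.384 CPM in Control and 5.51, 4.8 and 5.68 CPM in AD + Yip7 (3.73 ± 0.20, adjusted p = 1.1e-07). nerfin-1, a zinc finger factor of differentiating neurons, was at 0.199, 0.242 and 0.216 CPM in Control and 4.61, 3.37 and 3.4 CPM in AD + Yip7 (4.10 ± 0.23, adjusted p = 1.3e-07). Both were above every Control in all 3 AD + Yip7 libraries. Elo68alpha, a fatty acid elongase gene, was at 0.373, 0.0483 and 0.24 CPM in Control and 8.9, 12 and 10.8 CPM in AD + Yip7 (5.57 ± 0.30, adjusted p = 1.1e-07), and its neighbour in name Elo68beta, with no read in any Control, was at least 34.9-fold higher against a floor of 3 reads per Control library. c-cup had 2 reads in all Controls and 652 in AD + Yip7, a ratio of 333 with a 95% counting interval from 91.9 to 2757. These genes went from at or near the detection floor to low levels.

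Among the genes that fell, AstC-R1, a receptor for the neuropeptide allatostatin C, was at 20.6, 19.2 and 17.2 CPM in Control and 5.01, 4.73 and 5.44 CPM in AD + Yip7 (-1.91 ± 0.11, adjusted p = 1.3e-07). ort, the histamine-gated chloride channel through which photoreceptors signal to the optic lobe, went from 27.5, 23.8 and 22.3 CPM to 7.92, 7.22 and 6.25 CPM (-1.78 ± 0.13, adjusted p = 1.6e-06). Crz, the corazonin neuropeptide gene, was at 33.4, 34.5 and 28.6 CPM in Control and 12.5, 12.1 and 10.6 CPM in AD + Yip7 (-1.46 ± 0.12, adjusted p = 6.9e-06). In each of these 3 genes every Control was above every AD + Yip7 library. In whole heads, fewer cells that express a gene and less transcript in each cell cannot be told apart. Lsd-1, the perilipin that coats lipid droplets and controls lipolysis, was at 445, 473 and 431 CPM in Control and 202, 179 and 211 CPM in AD + Yip7 (-1.19 ± 0.10, adjusted p = 8.4e-06). Abcd3, a peroxisomal fatty acid transporter gene, fell from 355, 327 and 337 CPM to 143, 129 and 166 CPM (-1.22 ± 0.11, adjusted p = 7.9e-06). The cytochrome P450 gene Cyp4e3 fell from an abundant level, with 1348, 929.9 and 804 CPM in Control against 20.2, 27.2 and 54.7 CPM in AD + Yip7 and 62.9, 26.3 and 51.2 CPM in AD (-4.91 ± 0.41, adjusted p = 6.5e-06). CG14567 was low in both Aβ42 genotypes, at 3.55, 3.25 and 2.91 CPM in AD + Yip7 and 1.96, 2.25 and 2.02 CPM in AD against 16.8, 19.6 and 17.1 CPM in Control (-2.46 ± 0.14, adjusted p = 1.7e-07).

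**Figure D1:**
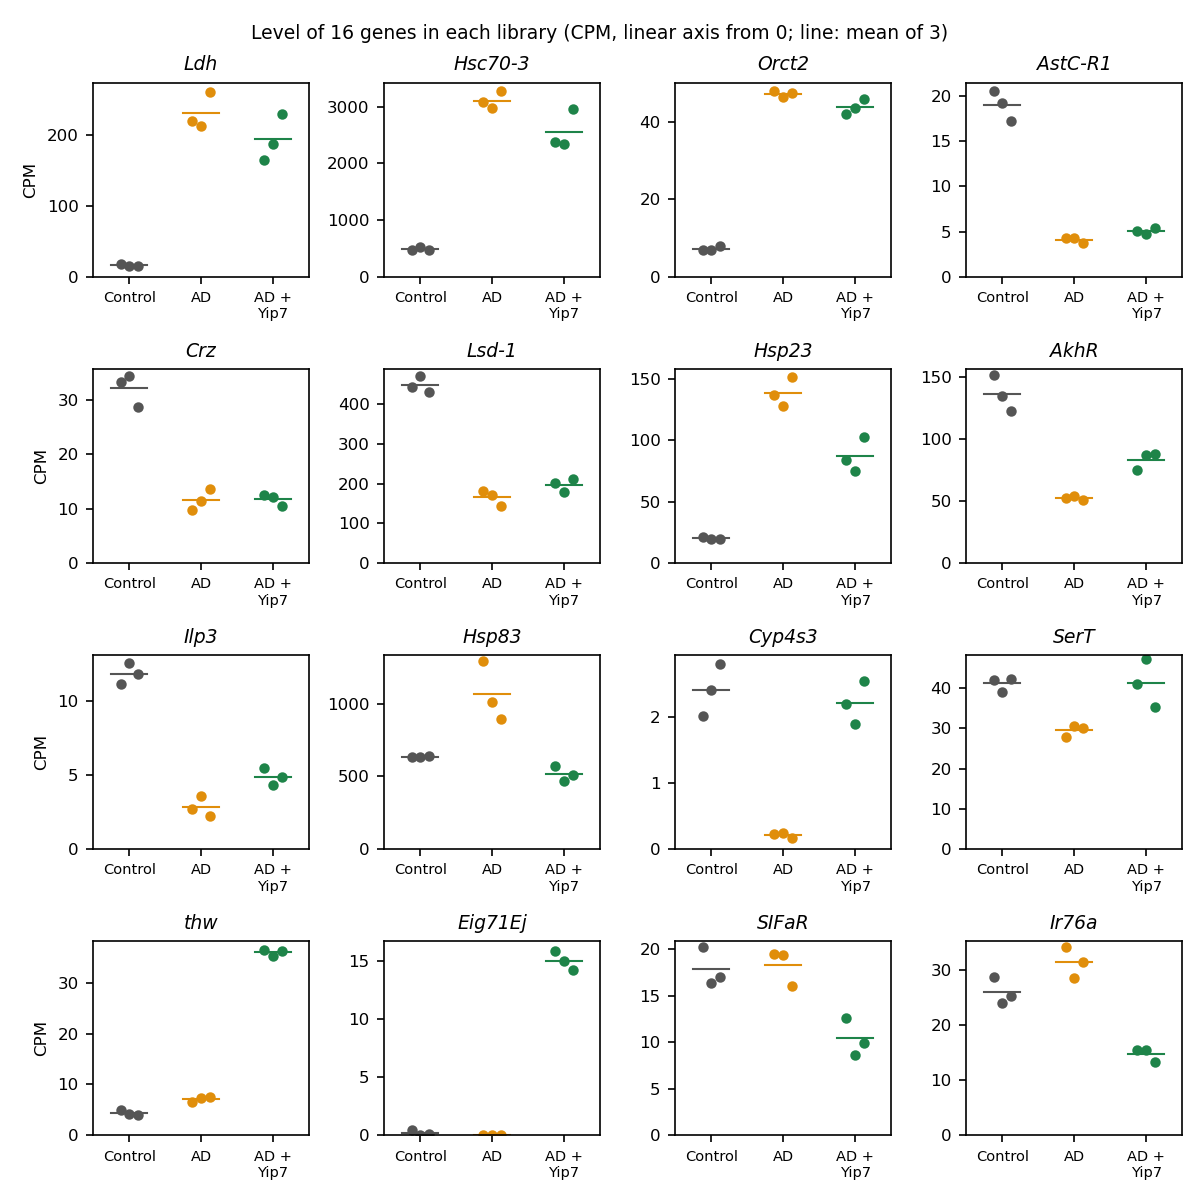
CPM of 16 genes in each Control, AD and AD + Yip7 library (points) with the mean of 3 libraries (line), each panel on its own scale. Ldh, Hsc70-3 and Orct2 are high in both Aβ42 genotypes, Hsp83, Cyp4s3 and SerT lie near Control in AD + Yip7, and thw and Eig71Ej are high in AD + Yip7 only among the 3 groups shown.

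Among the protein folding genes, the ER chaperones stood well above Control in AD + Yip7. Of the 26 genes in the list of ER folding and the unfolded protein response, 18 were higher and 0 lower in AD + Yip7 than in Control (median log2 fold change 0.46, against 0.0023 over all genes), and 19 were higher in AD (median 0.51). No member passed edgeR's test between AD + Yip7 and AD (median -0.04), 2 were lower at an unadjusted p under 0.05, and DESeq2 called 0. Hsc70-3, the ER chaperone BiP, was at 470.2, 527 and 479 CPM in Control, 3079, 2975 and 3280.5 CPM in AD and 2386, 2336 and 2959 CPM in AD + Yip7 (2.38 ± 0.14 against Control, adjusted p = 3.1e-07; -0.28 ± 0.14 against AD, adjusted p = 0.42). All AD + Yip7 libraries were far above the highest Control and below every AD library. Manf, a secreted factor of the ER stress response, was at 31.9, 37.1 and 34 CPM in Control and 82.9, 89.5 and 92.8 CPM in AD + Yip7 (2.57-fold, adjusted p = 3.3e-06). Ero1L, the oxidase that drives disulfide formation, was at 33.8, 33 and 30.8 CPM in Control and 77.2, 77 and 80.6 CPM in AD + Yip7 (1.27 ± 0.09, adjusted p = 1.9e-06). Sil1, the nucleotide exchange factor of BiP, was at 16.6, 16.2 and 15.7 CPM in Control and 36.6, 36.6 and 44.2 CPM in AD + Yip7 (1.28 ± 0.09, adjusted p = 1.7e-06). None of these groups overlapped.

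Of the other members, Gp93, the ER member of the Hsp90 family, rose by 1.51 on the log2 scale (adjusted p = 0.00014), and CaBP1, a protein disulfide isomerase, by 1.08 (adjusted p = 0.00030). The sensors Ire1 and PEK rose by 0.35 and 0.39 (adjusted p = 0.028 and 0.016), and Ire1 did not pass without any 1 of the 6 libraries, nor PEK without Control 3 or AD + Yip7 1. Xbp1, the transcription factor whose mRNA Ire1 splices, did not pass the test (479, 476 and 449 CPM in Control and 573, 537 and 555 CPM in AD + Yip7; adjusted p = 0.31), and gene counts do not show its splicing. Herp, Der-1 and Der-2, which act in the disposal of ER proteins, were 0.47 ± 0.08, 0.44 ± 0.11 and 0.44 ± 0.10 above Control, Der-1 being lost without Control 1, Control 3, AD + Yip7 2 or AD + Yip7 3 (adjusted p up to 0.093). Of the 11 genes of the integrated stress response list, 3 were higher and 1 lower (0 lower without Control 3 or AD + Yip7 2), and crc, the fly ATF4, was at 216, 256 and 263 CPM in Control and 277, 269.7 and 284 CPM in AD + Yip7 (adjusted p = 0.30).

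Several cytosolic chaperones lay between Control and AD. Of the 27 genes in the heat shock list, 11 were higher and 0 lower in AD + Yip7 than in Control (median 0.23), against 16 higher in AD (median 0.65), and 7 fell below AD in the direct test. Without AD + Yip7 1 or AD + Yip7 3 the number of higher members was 6 or 7. Hsp23, a small heat shock protein gene, was at 21.1, 19.6 and 19.2 CPM in Control, 137, 128 and 152 CPM in AD and 83.6, 74.6 and 103 CPM in AD + Yip7. The 3 groups did not overlap one another, and both steps passed the test (2.12 ± 0.12 against Control, adjusted p = 2.0e-07; -0.67 ± 0.12 against AD, adjusted p = 0.011). Hsp26 had the same order, at 16.4, 11.6 and 15.3 CPM, 118, 94.6 and 115 CPM and 63, 47.9 and 71.3 CPM in Control, AD and AD + Yip7 (2.07 ± 0.18 against Control, adjusted p = 6.8e-06; -0.85 ± 0.17 against AD, adjusted p = 0.025). Hsp68 was at 43.3, 35.6 and 35.4 CPM, 113, 101 and 133 CPM and 69.6, 49.2 and 66.8 CPM (0.70 ± 0.16 against Control, adjusted p = 0.0099; -0.90 ± 0.16 against AD, adjusted p = 0.011). Without AD + Yip7 1 the difference of Hsp68 from Control had an adjusted p of 0.050, and Hsp23 and Hsp26 did not pass against AD without AD + Yip7 1 or AD + Yip7 2 (adjusted p up to 0.061 for Hsp23 and 0.10 for Hsp26, which was lost without AD 1 or AD 3 too). Hsp23 did not pass against AD in edgeR on the 6 libraries alone either. The alpha-crystallin gene l(2)efl came closest to Control among the called members, at 79, 75.8 and 70.0 CPM, 269, 267 and 307 CPM and 112, 105 and 105 CPM (0.52 ± 0.16 against Control, adjusted p = 0.044; -1.39 ± 0.16 against AD, adjusted p = 0.00063), and its difference from Control did not pass once any 1 of the 6 libraries was left out (adjusted p up to 0.14).

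The near-identical Hsp70 copies cannot be counted apart with confidence, so their reads were summed. The sum over 6 copies was 49.6, 37.8 and 55.0 CPM in Control, 131, 113 and 100.1 CPM in AD and 75.4, 67.8 and 83.0 CPM in AD + Yip7. It was higher than in Control by 0.67 ± 0.16 on the log2 scale (adjusted p = 0.015), and the difference from AD was -0.61 (adjusted p = 0.086). Hsp83, the cytosolic Hsp90, and DnaJ-1, an Hsp40 co-chaperone of the heat shock response, did not pass the test against Control. Hsp83 was at 630.2, 635 and 642 CPM in Control, 1292, 1014 and 894 CPM in AD and 569, 471 and 510.2 CPM in AD + Yip7 (-0.30 ± 0.14 against Control, adjusted p = 0.20; -1.05 ± 0.14 against AD, adjusted p = 0.0029). All AD + Yip7 libraries lay below all Controls and all AD libraries above them, although the difference from Control did not pass the test. DnaJ-1 was at 109, 85.5 and 78.9 CPM, 240.2, 171 and 155 CPM and 100.1, 85.1 and 92.4 CPM, and its AD + Yip7 libraries fell within the Control range (0.02 ± 0.17 against Control; -1.03 ± 0.17 against AD, adjusted p = 0.0083). Of the 8 subunits of the chaperonin CCT, 3 were higher in AD + Yip7 than in Control, 0 of them without Control 1 or AD + Yip7 3 and 1 without Control 3, 7 were higher in AD, and edgeR called 0 between AD + Yip7 and AD, where 5 were lower at an unadjusted p under 0.05 and DESeq2 called 3 lower in the fit of all 12 libraries and 1 in that of 6.

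**Figure D2:**
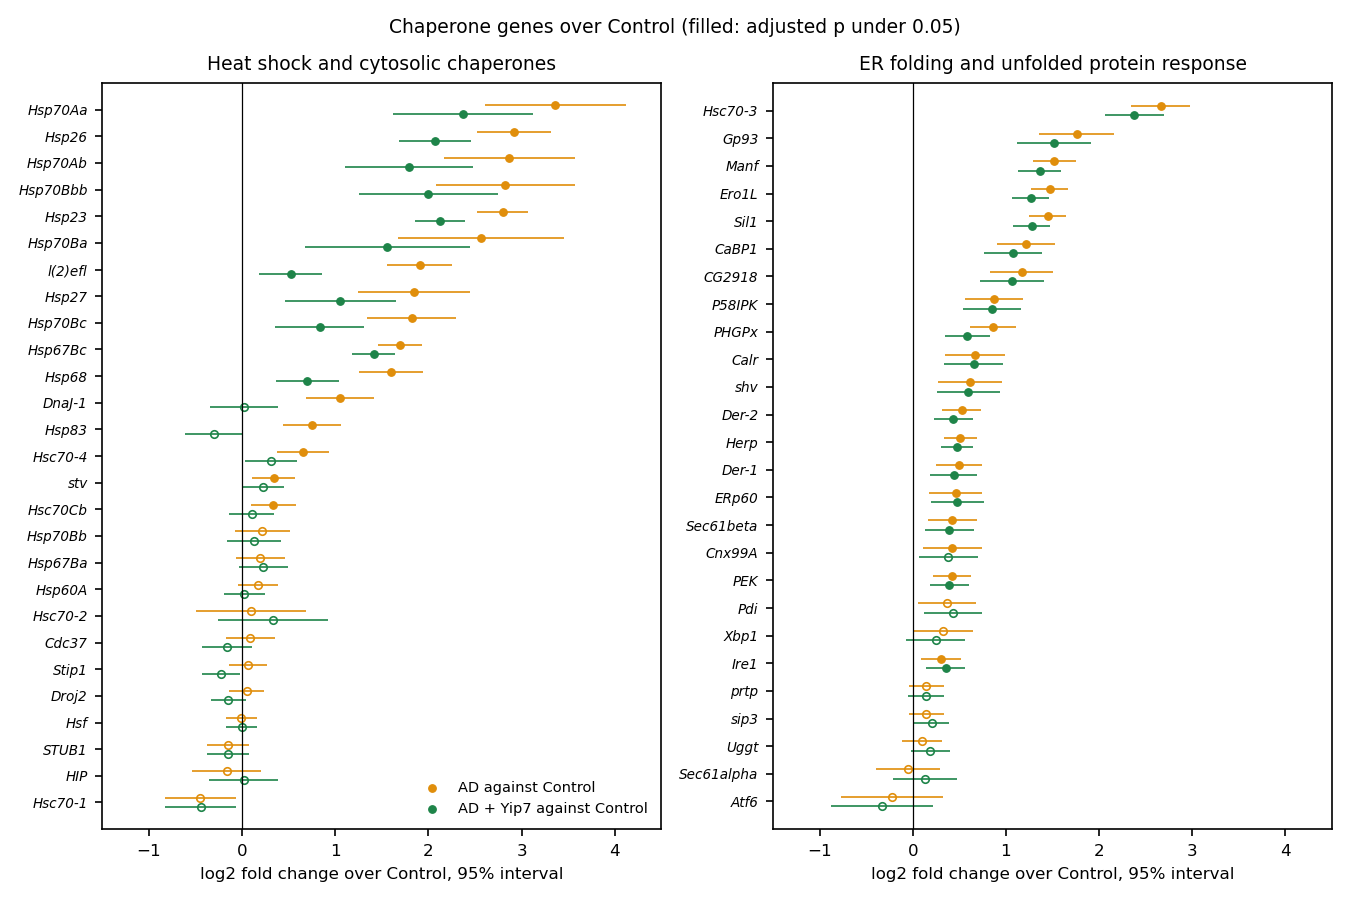
Log2 fold change over Control with its 95% interval for each gene of the heat shock list and of the ER list, AD in orange and AD + Yip7 in green, filled where the adjusted p was under 0.05. In the ER list the paired points lie close together, while in the heat shock list many of the AD + Yip7 points lie nearer to 0 than the AD points.

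Ribosomal protein genes, most of which were higher in AD than in Control, were mostly not called in AD + Yip7. Of 85 cytosolic ribosomal protein genes, 2 were higher in AD + Yip7 than in Control and 0 lower (median 0.17), while 70 were higher in AD (median 0.50). The direct difference between AD + Yip7 and AD had a median of -0.33 and passed edgeR's adjusted test for 0 of the 85, while 57 were lower and 0 higher at an unadjusted p under 0.05. DESeq2 called 5 of them lower in the fit of all 12 libraries and 18 in that of the 6 libraries alone. Against Control, DESeq2 called 3 and 15 higher in the same fits. RpL3 illustrates the size, at 2155, 2340.5 and 2121 CPM in Control, 2935, 2783 and 3263 CPM in AD and 2625, 2321 and 2293 CPM in AD + Yip7 (adjusted p = 0.47 against Control and 0.20 against AD). The AD + Yip7 libraries of RpL3 lay partly inside the Control range and below all AD libraries. The 2 called genes were RpS10a and RpL37b, paralogs that Control heads hardly expressed: RpS10a had 3 reads in all Controls and 240 in AD + Yip7, a ratio of 81.8 (95% counting interval 27.6 to 399). Over all 85 genes, the mean log2 level above the Control mean was 0.391, 0.218 and 0.170 in AD + Yip7. It was 0.592, 0.469 and 0.718 in AD and 0.148, 0.218 and 0.634 in AD + Yip7ΔS. Between AD + Yip7 and AD + Yip7ΔS, edgeR called 0 of the 85 (median -0.07). Of 46 translation factor genes, 6 were higher (23 in AD), and leaving out any 1 of the 6 libraries left between 0 and 2. Of 25 ribosome biogenesis genes, 3 were higher (12 in AD), and each left-out library reduced that to 1 or 2. Fib, the nucleolar methyltransferase fibrillarin, was at 20.9, 24.1 and 29.4 CPM in Control, 47.3, 53.4 and 49.7 CPM in AD and 36.2, 34.3 and 45.3 CPM in AD + Yip7 (0.64 ± 0.14, adjusted p = 0.010). Aminoacyl-tRNA synthetase genes had a different pattern, with 10 of 33 higher in AD + Yip7 and 13 in AD, and 6 without AD + Yip7 3. In the proteasome list 1 of 35 genes was called and in the autophagy list 3 of 22, neither of them a share above the 14.6% of all tested genes. Leaving out any 1 library except Control 1 left 0 in the proteasome list, and any except Control 3 left 1 in the autophagy list.

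Genes of the citric acid cycle, glutamate and lipid lists were mostly lower where they differed, while other metabolic lists had few calls. The citric acid cycle list holds enzymes that feed the cycle, such as malic enzymes, as well as those that run it. Of its 23 genes, 5 were lower in AD + Yip7 than in Control and 0 higher (median -0.22), against 13 lower in AD (median -0.29), and without Control 2 or AD + Yip7 2 the count was 3. Men, the cytosolic malic enzyme that supplies NADPH, was at 863, 852 and 979 CPM in Control, 289, 313 and 379 CPM in AD and 437, 351 and 441 CPM in AD + Yip7 (-1.13 ± 0.13, adjusted p = 7.8e-05). All AD + Yip7 libraries of Men lay below all Controls, and 2 of the 3 lay above all AD libraries. ScsbetaA, a subunit of succinyl-CoA synthetase, went from 768, 703 and 632 CPM to 445, 382 and 475 CPM (-0.69 ± 0.11, adjusted p = 0.0010). Ldh was the sole member of 13 glycolytic genes that was called. Of 13 glutamate and amino acid genes, 7 were lower and 1 higher (9 and 2 in AD), with 4, 4 and 3 lower members without Control 2, Control 3 and AD + Yip7 2. Eaat1, the glial glutamate transporter, was at 347, 327 and 351 CPM in Control, 207, 205 and 161 CPM in AD and 222, 203 and 229 CPM in AD + Yip7 (-0.65 ± 0.11, adjusted p = 0.0020), with all AD + Yip7 libraries below all Controls. Got2, the mitochondrial aspartate aminotransferase, was the higher member, at 309, 422 and 328 CPM in Control and 571, 472 and 576 CPM in AD + Yip7 (0.61 ± 0.15, adjusted p = 0.018, and up to 0.078 without Control 1, Control 3, AD + Yip7 1 or AD + Yip7 3). Among 65 respiratory chain genes 1 was higher and 1 lower, and neither was left without Control 2 or AD + Yip7 2. The higher one was lost without Control 3, and the lower one without Control 1 or AD + Yip7 3. Of 22 lipid metabolism genes, 4 were lower and 2 higher in AD + Yip7 than in Control (10 and 3 in AD). Of 9 methionine cycle and transsulfuration genes, 2 were higher and 0 lower (3 and 1 in AD). Neither higher call was left without Control 3, AD + Yip7 1 or AD + Yip7 3. Against AD, 1 of the 9 was higher and 2 were lower.

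Detoxification genes were called in both directions, as were genes in general (62.7% of all called genes were higher). Of 77 cytochrome P450 genes, 12 were higher and 6 lower in AD + Yip7 than in Control (15 and 13 in AD), and 3 were higher in AD + Yip7 than in AD. The share called against Control was 23.4% here and 21.2% of the glutathione S-transferase genes, against 14.6% of all tested genes. Cyp6a2, a xenobiotic-inducible enzyme, was at 156, 165 and 139 CPM in Control and 426, 350.2 and 469.6 CPM in AD + Yip7 (1.43 ± 0.19, adjusted p = 0.00023). Cyp4s3 was at 2.01, 2.42 and 2.81 CPM in Control and 2.2, 1.9 and 2.55 CPM in AD + Yip7, overlapping groups, and at 0.226, 0.247 and 0.166 CPM in AD (difference from AD 3.36 ± 0.25, adjusted p = 1.5e-05). Its level in AD + Yip7 was 10.3 times that in AD. GstE1, a glutathione S-transferase, was at 9.22, 9.5 and 10.2 CPM in Control and 28, 26.4 and 28.7 CPM in AD + Yip7 (1.52 ± 0.12, adjusted p = 4.7e-06), 1 of 5 higher and 2 lower members among 33. Leaving out any 1 library left 3 higher ones, and the lower ones were 0 without AD + Yip7 2 and 1 without Control 2, Control 3, AD + Yip7 1 or AD + Yip7 3. Rdh1, a retinol dehydrogenase gene outside these lists, was at 9.4, 8.02 and 8.11 CPM in Control and 36.7, 39.7 and 42.7 CPM in AD + Yip7 (2.22 ± 0.10, adjusted p = 3.4e-08).

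Of 28 Toll and Imd genes, 6 were higher and 0 lower in AD + Yip7 than in Control, and 22 did not pass the test (1 was lower without Control 3). The called share was 21.4%, against 14.6% of all tested genes. In AD 4 were higher and 1 lower, 17.9% against 26.0% of all tested genes. dl, the NF-kappaB factor dorsal, was at 75.1, 70.4 and 68.3 CPM in Control and 125, 134 and 116 CPM in AD + Yip7 (0.81 ± 0.10, adjusted p = 0.00017). Rel, the NF-kappaB factor of the Imd pathway, was at 118, 137 and 132 CPM in Control and 172, 189 and 213 CPM in AD + Yip7 (0.57 ± 0.10, adjusted p = 0.0025). Neither overlapped between groups. Of 20 JNK and JAK-STAT genes, 4 were higher, 0 lower and 16 not called, a called share of 20%. In AD 5 were higher and 1 lower, a share of 30%. Socs36E, a feedback inhibitor of JAK-STAT signalling, was at 34.8, 39.3 and 39.5 CPM in Control and 74.3, 78.9 and 83.7 CPM in AD + Yip7 (1.06 ± 0.12, adjusted p = 6.9e-05). The JNK phosphatase puc and the matrix metalloproteinase Mmp1 rose by 0.56 and 0.77 (adjusted p = 0.0074 and 0.00021). Of 15 antimicrobial peptide genes, 4 were lower and 1 higher, but no lower call was left without Control 2, AD + Yip7 1 or AD + Yip7 2, and the higher ones were 2 without Control 1 or Control 2. In AD, against the same Controls, 8 were lower and 2 higher. Dro, which encodes drosocin, was at 21.1, 189.8 and 39.1 CPM in Control and 8.16, 7.86 and 20.1 CPM in AD + Yip7, and Control 2 was the high library. Drs, the antifungal peptide drosomycin, was higher, at 2.19, 7.76 and 3.67 CPM in Control and 24.3, 18.7 and 21.7 CPM in AD + Yip7 (2.25 ± 0.46, adjusted p = 0.0058).

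Neuropeptide genes were mostly lower where they differed. Of 40 measured, 16 were lower and 3 higher in AD + Yip7 than in Control (median -0.39), and 22 were lower and 5 higher in AD (median -0.56). Against AD itself, 1 was higher and 1 lower. SIFa, a peptide made by a few large neurons of the pars intercerebralis, was at 8.08, 9.11 and 8.37 CPM in Control, 0.578, 0.618 and 1.02 CPM in AD and 1.11, 0.475 and 0.588 CPM in AD + Yip7 (-3.56 ± 0.40, adjusted p = 6.7e-05). Ilp2, an insulin-like peptide of the brain's insulin-producing cells, was at 49.7, 50.5 and 53.4 CPM in Control, 16.5, 20.5 and 16 CPM in AD and 23.9, 24 and 22.1 CPM in AD + Yip7 (-1.13 ± 0.12, adjusted p = 3.9e-05). Ilp2 libraries of AD + Yip7 were above every AD library and below every Control, though the direct difference from AD did not pass (0.40 ± 0.12, adjusted p = 0.12). Ilp3, made by the same cells, had that order too and did pass, at 11.2, 12.6 and 11.9 CPM, 2.71, 3.56 and 2.24 CPM and 5.49, 4.3 and 4.85 CPM in Control, AD and AD + Yip7 (-1.28 ± 0.16 against Control, adjusted p = 0.00016; 0.78 ± 0.17 against AD, adjusted p = 0.035). The difference of Ilp3 from AD was lost with the replicate block, in edgeR on the 6 libraries alone, and without Control 2, Control 3, AD + Yip7 1, AD + Yip7 3, AD 1 or AD 3 (adjusted p up to 0.14).

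Other peptide genes that fell were Tk (tachykinin), AstA and AstC (allatostatins), Dh44 (a diuretic hormone), ITP (ion transport peptide), Hug (hugin), Mip, Ms (myosuppressin), Capa, Trissin, CNMa and Eh (eclosion hormone). Tk was at 56.4, 53.1 and 49.1 CPM in Control and 32.4, 31.3 and 31.8 CPM in AD + Yip7 (-0.73 ± 0.09, adjusted p = 0.00019), and Dh44 was at 112, 97.2 and 97 CPM and 67.6, 64.1 and 66.2 CPM (-0.63 ± 0.13, adjusted p = 0.0064). The higher peptides were Proc (proctolin), Akh (adipokinetic hormone) and Nplp4. Proc was at 54.5, 48 and 48.4 CPM in Control and 85.8, 94.5 and 91 CPM in AD + Yip7 (0.85 ± 0.09, adjusted p = 4.5e-05), with no overlap. Nplp4 was at 14.6, 8.84 and 10.6 CPM in Control, 12.6, 17.5 and 22.6 CPM in AD and 40.1, 37.3 and 31.4 CPM in AD + Yip7 (1.68 ± 0.29, adjusted p = 0.0017), and its AD libraries overlapped the Controls and lay below AD + Yip7. FMRFa was the peptide that was lower than in AD and near Control, at 10.4, 9.16 and 10.1 CPM, 20.4, 18.6 and 19.4 CPM and 12, 8.77 and 13.2 CPM in Control, AD and AD + Yip7 (0.20 ± 0.14 against Control, adjusted p = 0.38; -0.78 ± 0.13 against AD, adjusted p = 0.011, and 0.052 without AD 1).

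Of 37 neuropeptide receptor genes, 5 were lower and 1 higher in AD + Yip7 than in Control. This share, 16.2%, was near the 14.6% of all tested genes. In AD 8 were lower and 3 higher, 29.7% against 26.0% of all tested genes. The lower ones in AD + Yip7 were 3 without AD + Yip7 2, and the higher ones were 3 without Control 1. AkhR, the fat body receptor for adipokinetic hormone, was at 151, 134 and 122 CPM in Control, 52.1, 54 and 50.4 CPM in AD and 74.7, 86.8 and 87.8 CPM in AD + Yip7. It lay between the other groups without touching either (-0.71 ± 0.10 against Control, adjusted p = 0.00036; 0.67 ± 0.10 against AD, adjusted p = 0.0037). SIFaR, the receptor for SIFa, was lower in AD + Yip7 than in both references, at 20.3, 16.4 and 17.1 CPM, 19.5, 19.4 and 16 CPM and 12.6, 8.65 and 9.94 CPM (-0.79 ± 0.14 against Control, adjusted p = 0.0028; -0.82 ± 0.14 against AD, adjusted p = 0.012, and up to 0.063 without AD + Yip7 2, AD + Yip7 3, AD 1 or AD 2).

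Odorant receptor genes, each expressed in a small class of antennal or palp neurons, were low throughout and moved both ways. Of 45 measured, 6 were lower and 6 higher in AD + Yip7 than in Control (median 0.06), 15 were lower and 4 higher in AD (median -0.72), and in the direct test against AD 5 were higher and 0 lower (median 0.65). Leaving out any 1 library left 6 lower receptors, while the higher ones numbered 2, 1, 2 and 2 without Control 2, Control 3, AD + Yip7 1 and AD + Yip7 2. Or59b was at 6.24, 3.74 and 3.96 CPM in Control, 0.478, 0.569 and 0.547 CPM in AD and 0.344, 0.689 and 0.735 CPM in AD + Yip7, low in both Aβ42 genotypes (-2.97 ± 0.32, adjusted p = 5.3e-05). Or47a was at 1.47, 0.677 and 1.06 CPM, 0.101, 0 and 0.0713 CPM and 0.742, 0.95 and 0.71 CPM, so that AD + Yip7 lay within the Control range and above all AD libraries (3.74 ± 0.64 against AD, adjusted p = 0.011). Or46a was called in opposite directions against Control, lower in AD and higher in AD + Yip7, at 2.21, 1.43 and 1.2 CPM, 0.754, 0.668 and 0.927 CPM and 3.82, 3.9 and 2.67 CPM (1.10 ± 0.28, adjusted p = 0.019; AD against Control -1.04 ± 0.30, adjusted p = 0.022). The higher call was lost without Control 2, Control 3, AD + Yip7 1 or AD + Yip7 2 (adjusted p up to 0.081). Of 33 odorant-binding proteins, 13 were higher and 4 lower, but without Control 2, Control 3, AD + Yip7 1 and AD + Yip7 2 the higher ones were 3, 4, 8 and 4. The lower ones were 1 without AD + Yip7 1 and 2 without Control 1, Control 3 or AD + Yip7 2.

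**Figure D3:**
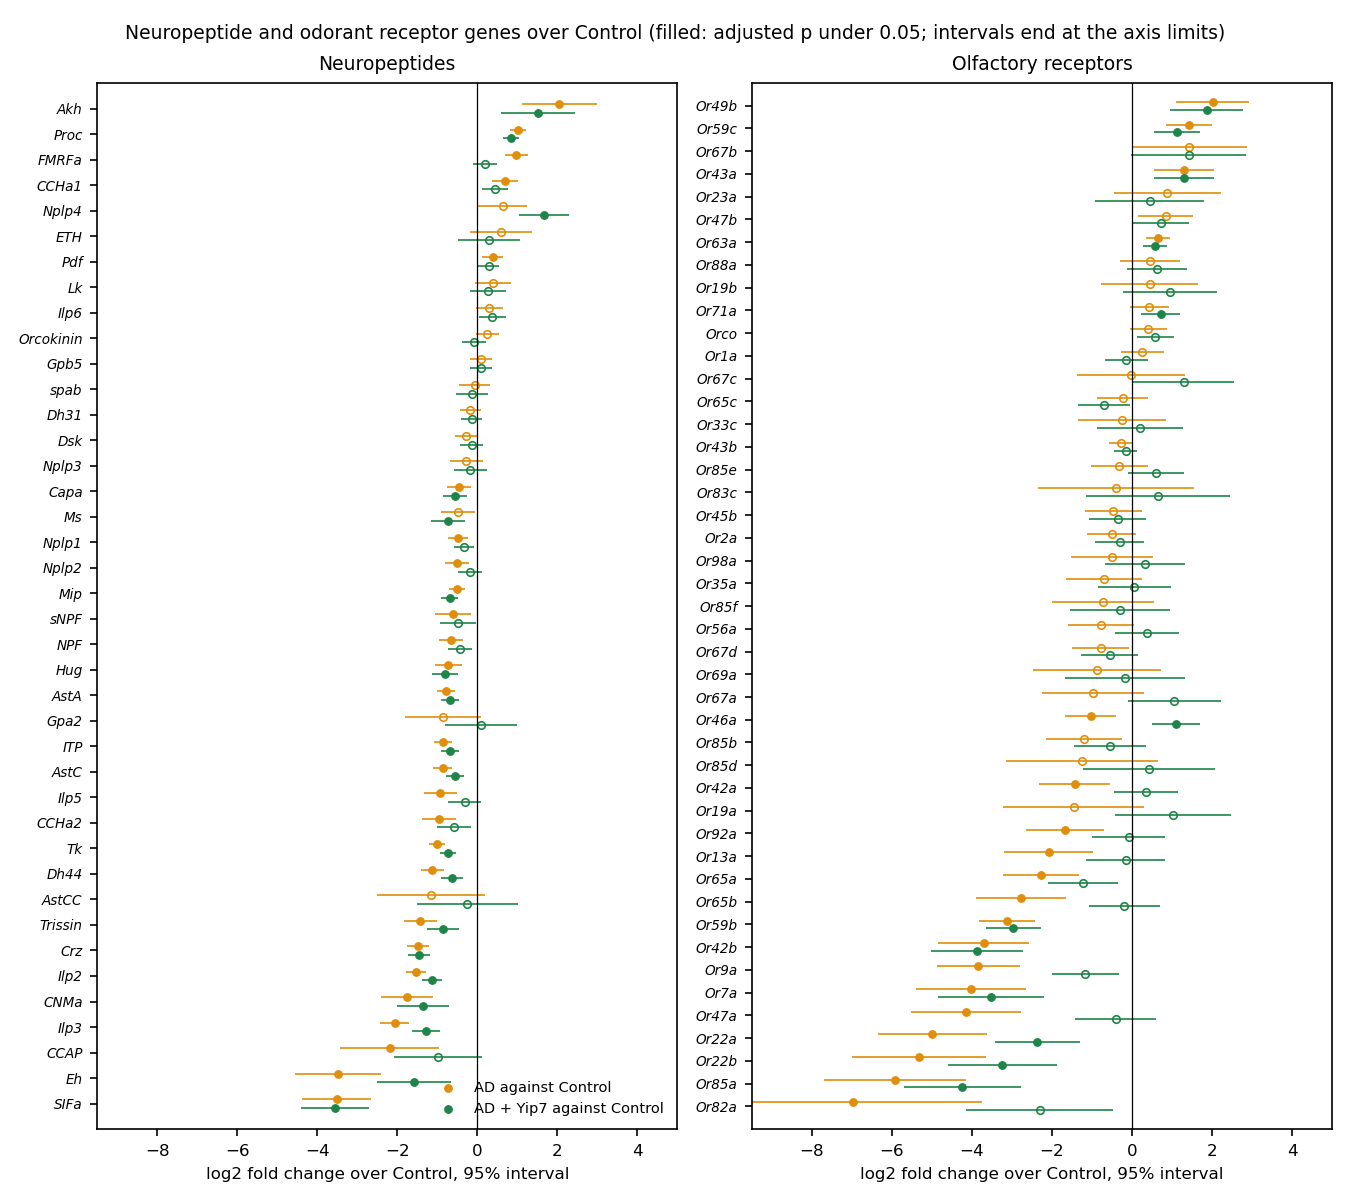
Log2 fold change over Control with its 95% interval for neuropeptide genes and odorant receptor genes, AD in orange and AD + Yip7 in green, filled where the adjusted p was under 0.05. Most neuropeptide points of both genotypes lie left of 0, and among the odorant receptors several AD points lie far left of the AD + Yip7 point of the same gene.

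General neuronal markers did not pass edgeR's test. Of 10 neuronal genes 0 were called in AD + Yip7 (median -0.28; 3 lower in AD), and nSyb, whose promoter drives the transgenes, was at 1468, 1541 and 1559.7 CPM in Control and 1366, 1324 and 1294 CPM in AD + Yip7 (-0.20 ± 0.10, adjusted p = 0.24). At an unadjusted p under 0.05, 2 of the 10 were lower, and DESeq2 called 1 lower in the fit of all 12 libraries and 6 in that of the 6 libraries alone. Of 25 synaptic genes 3 were lower and of 26 ion channel genes 3 were lower, with as few as 0 of each once a library was left out. These were 12% and 11.5% of the members, with 0 higher. Of all tested genes 5.44% were lower and 14.6% were called in either direction. Of 15 glial genes 4 were lower, 26.7% of the members (8 in AD), and 2 without Control 2, Control 3, AD + Yip7 1 or AD + Yip7 2. alrm, an astrocyte marker, was at 73.9, 75.5 and 80.2 CPM in Control and 39.8, 45.4 and 58 CPM in AD + Yip7 (-0.68 ± 0.14, adjusted p = 0.0056), and repo, the glial transcription factor, was at 55, 61.8 and 59.3 CPM and 43.7, 48.9 and 50.3 CPM (adjusted p = 0.072). Of 27 photoreceptor genes 5 were lower, 18.5% of the members. The lower ones were 2, 2, 2, 1 and 3 without Control 2, Control 3, AD + Yip7 1, AD + Yip7 2 and AD + Yip7 3. The main rhodopsin gene ninaE was at 34906, 43200.3 and 40299.9 CPM in Control and 30705, 31313 and 34294 CPM in AD + Yip7 (adjusted p = 0.13).

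Markers of other tissues differed in how often they were called against Control. The share was 41.7% of hemocyte, 30.4% of digestive enzyme and 24.1% of cuticle protein genes. It was 14.3% of muscle and 13.3% of fat body genes, near the 14.6% of all tested genes. Of 12 hemocyte genes 5 were lower and 0 higher (median -0.68, and 7 lower in AD). The lower ones were 4 without Control 3, AD + Yip7 1 or AD + Yip7 2, and 8 without AD + Yip7 3. PPO2, a prophenoloxidase of crystal cells, was at 71.6, 131 and 138 CPM in Control and 35.5, 41.6 and 51.8 CPM in AD + Yip7 (-1.40 ± 0.22, adjusted p = 0.00087), and Control 1 was the lowest Control here. Of 15 fat body genes 1 was higher and 1 lower in AD + Yip7, while 7 were lower in AD and 5 were higher in AD + Yip7 than in AD. Against Control the higher ones were 3, 0, 0, 2 and 0 without Control 1, Control 2, Control 3, AD + Yip7 1 and AD + Yip7 2, and 3 were lower without AD + Yip7 3. Yp2, a yolk protein, was at 18909.6, 21489 and 22526 CPM, 13433, 14747 and 12205 CPM and 22596, 24267 and 29744 CPM in Control, AD and AD + Yip7 (0.92 ± 0.14 against AD, adjusted p = 0.0046). Of 23 digestive enzyme genes that were measured, 6 were higher and 1 lower in AD + Yip7, against 16 and 3 in AD. The number of higher ones was 2 without Control 2, Control 3 or AD + Yip7 2. Their mean log2 level above the Control mean was 0.63, 2.41 and 0.87 in AD + Yip7 1, 2 and 3, so that AD + Yip7 2 was the high library. Jon65Aiv, a gut protease related to Yip7, was at 0.199, 0 and 0.048 CPM in Control, 47.5, 48.5 and 32.8 CPM in AD and 0, 17.9 and 0.0735 CPM in AD + Yip7, and so was near 0 in 2 of the 3 AD + Yip7 libraries where yip7 itself was high. The near-identical Jon99Cii and Jon99Ciii, summed, were at 0.132, 4.23 and 1.05 CPM in AD + Yip7 and 43.6, 62.0 and 40.1 CPM in AD (-4.73 against AD, adjusted p = 0.0024). Whether cells of other tissues took part in the differences above was not tested.

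**Figure D4:**
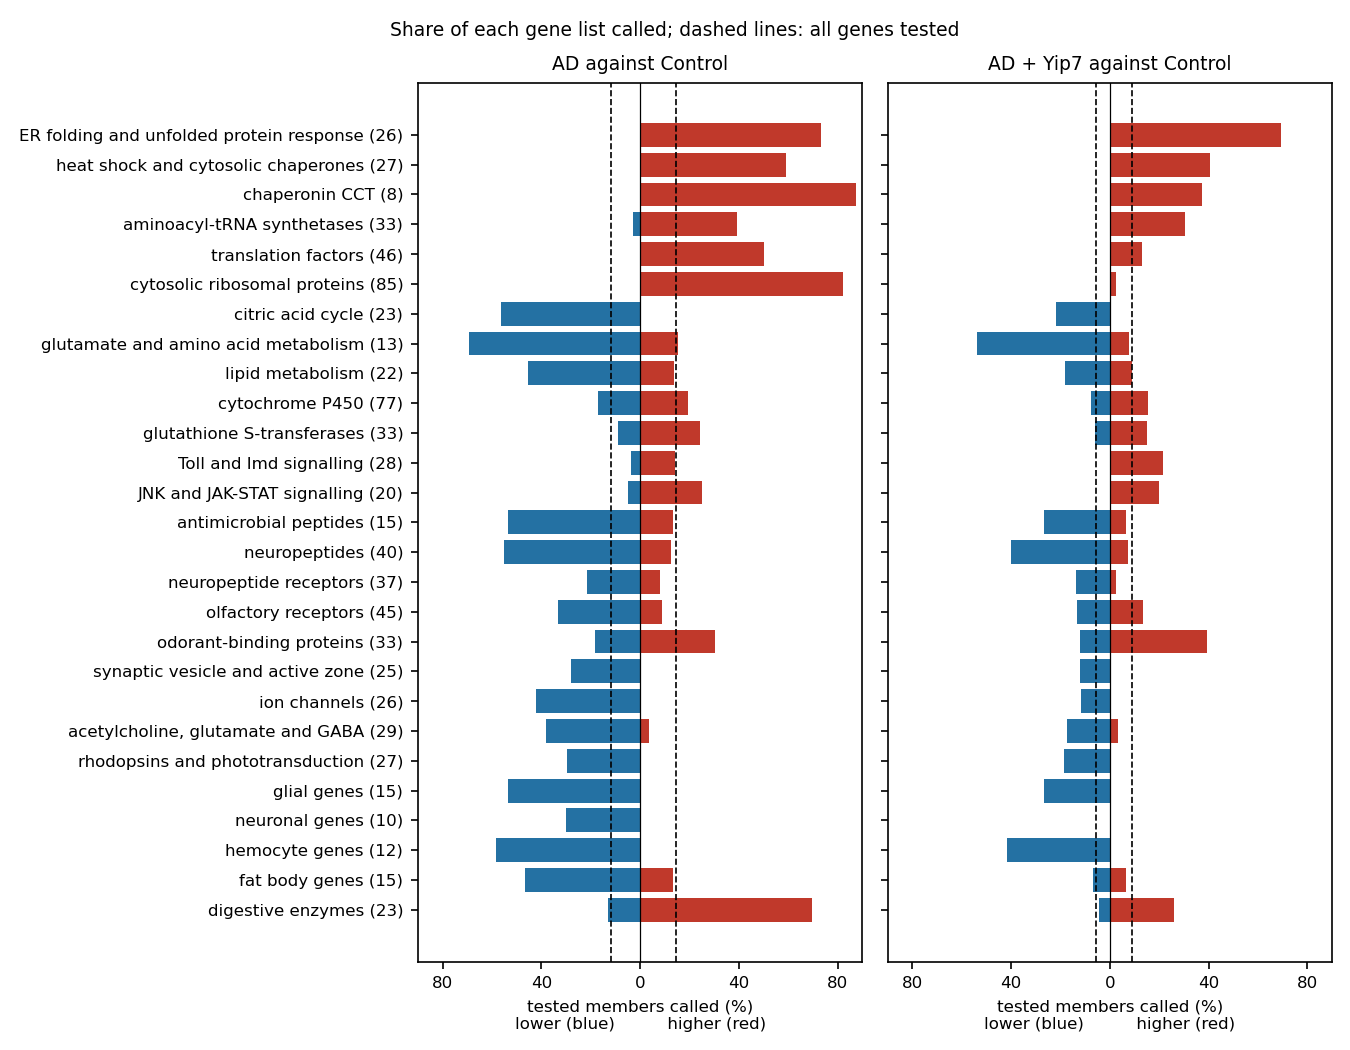
Percentage of the measured members of 27 gene lists that were called higher or lower, for AD against Control on the left and AD + Yip7 against Control on the right, with dashed lines at the percentage among all tested genes. The higher bar of the ER list and the lower bar of the neuropeptides reach far past the dashed lines in both panels, whereas the bar of the cytosolic ribosomal proteins is long on the left and short on the right.

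Of the 191 genes that differed between AD + Yip7 and AD, 110 were not called against Control, and 38 lay between the other groups, differing from AD in one direction and from Control in the other, as Hsp23, Ilp3 and AkhR did. Named examples besides Hsp83, DnaJ-1 and Cyp4s3 were SerT and TotC. SerT, the serotonin transporter, was at 42.1, 39 and 42.4 CPM in Control, 27.7, 30.6 and 30.1 CPM in AD and 40.9, 47.2 and 35.4 CPM in AD + Yip7 (0.48 ± 0.11 against AD, adjusted p = 0.045), and the AD + Yip7 range covered the Controls. The difference of SerT from AD was small, and leaving out any library of these groups except AD + Yip7 3 lost the call, as did the replicate block, upper quartile scaling, both other count filters and edgeR on the 6 libraries alone (adjusted p up to 0.18). TotC, a stress-induced secreted peptide of the Turandot family, was at 59.4, 71.7 and 64.5 CPM, 13.5, 17.9 and 12.3 CPM and 100.1, 168 and 121 CPM (0.99 ± 0.58 against Control, adjusted p = 0.30; 3.16 ± 0.63 against AD, adjusted p = 0.025, and up to 0.12 without AD + Yip7 2, AD + Yip7 3 or any 1 AD library). All 3 AD + Yip7 libraries of TotC were above all Controls, with a difference from Control that did not pass the test. A gene not called against Control is not shown to be equal to it: the median standard error of a log2 fold change was 0.14.

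Another 43 genes differed from Control and from AD in the same direction, 30 higher and 13 lower in AD + Yip7. They were 2.79% of the genes that differed from Control and 22.5% of those that differed from AD; the same AD + Yip7 libraries enter both tests, so the overlap is given as a description. 2 of them, Dhc16F and Ankle2, also differed between AD + Yip7 and AD + Yip7ΔS in the direct test. The genes in this and the next paragraph were chosen after their values were seen. thw (FBgn0037487; 3R:7224414-7241138) was at 4.97, 4.13 and 3.93 CPM in Control, 6.58, 7.22 and 7.54 CPM in AD, 36.6, 35.4 and 36.3 CPM in AD + Yip7 and 45.7, 42.3 and 38.6 CPM in AD + Yip7ΔS (3.05 ± 0.12 against Control, adjusted p = 6.3e-09; 2.34 ± 0.11 against AD, adjusted p = 3.2e-07). Dhc16F, which encodes a dynein heavy chain, was at 0.572, 1.09 and 1.7 CPM, 0.452, 0.519 and 0.832 CPM, 21.2, 10.8 and 20.5 CPM and 0.876, 1.04 and 0.752 CPM in the same order (3.96 ± 0.36 against Control, adjusted p = 1.1e-05; 4.85 ± 0.38 against AD, adjusted p = 3.0e-05; 4.29 ± 0.37 against AD + Yip7ΔS, adjusted p = 0.00013). AD + Yip7 was thus the high group for Dhc16F among all 4 genotypes. Ankle2, which acts in nuclear envelope assembly, was high in the same libraries, at 49.5, 52.3 and 49.8 CPM, 58.3, 62.6 and 61 CPM, 126, 178 and 161 CPM and 54.8, 62.2 and 51.1 CPM (1.62 ± 0.12 against Control, adjusted p = 2.5e-06). Dad, the inhibitory Smad of Dpp signalling, was 0.98 ± 0.11 above Control (adjusted p = 7.0e-05) and 0.89 ± 0.11 above AD (adjusted p = 0.0011). The voltage-gated chloride channel gene ClC-a was 1.26 ± 0.12 above Control (adjusted p = 1.7e-05).

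By the Ensembl annotation of the dm6 assembly, 42 of the 43 genes had a position and 27 of those were on chromosome 3, where 44.1% of 10367 located tested genes lie. Some were neighbours. Eig71Ee, Eig71Ef, Eig71Eh and Eig71Ej, ecdysone-induced genes of the larval salivary gland, lie at 3L:15654472-15661015, and all 4 were higher. Eig71Ej was at 0.472, 0 and 0.0719 CPM in Control, 0, 0 and 0 CPM in AD and 15.9, 15 and 14.2 CPM in AD + Yip7, at least 203.9-fold higher than in AD against a floor of 3 reads per AD library. Its AD + Yip7ΔS libraries were at 13.4, 14.5 and 21.9 CPM, so that both genotypes with a Yip7 transgene were high. CG14102 (3L:19798975-19801291) and the antennal ionotropic receptor gene Ir76a (3L:19799278-19803427) overlap each other and moved in opposite directions. CG14102 was at 5.74, 6.55 and 6.81 CPM in Control, 6.61, 7.07 and 6.23 CPM in AD and 19.2, 18.2 and 17.3 CPM in AD + Yip7 (1.52 ± 0.10, adjusted p = 1.1e-06). Ir76a was at 28.8, 24 and 25.4 CPM, 34.3, 28.7 and 31.5 CPM and 15.5, 15.6 and 13.3 CPM (-0.82 ± 0.12, adjusted p = 0.00057). The sources do not state whether reads were counted by strand, so reads in the shared stretch cannot be assigned with confidence.

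The copper-binding metallothionein gene MtnA (3R:9783407-9784370) was at 205, 253 and 247 CPM in Control, 304, 286 and 365 CPM in AD and 138, 145 and 149.5 CPM in AD + Yip7, higher than Control in AD (0.44 ± 0.13, adjusted p = 0.022) and lower than Control in AD + Yip7 (-0.70 ± 0.13, adjusted p = 0.0024). Whamy (3R:9771795-9774419), a regulator of actin assembly, lies near it and had the same order, at 2.86, 2.75 and 3.0 CPM, 5.53, 4.57 and 4.85 CPM and 1.93, 2.14 and 1.57 CPM (-0.61 ± 0.16, adjusted p = 0.025, and up to 0.10 when any 1 library other than AD + Yip7 2 was left out). 5 genes in all were called against Control in opposite directions in AD and AD + Yip7: MtnA, Whamy, CG33965, Or46a and Cyp6t1. None of these 5 passed edgeR's test between AD + Yip7 and AD + Yip7ΔS (adjusted p from 0.40 to 0.94). In AD + Yip7ΔS, MtnA was at 172, 168 and 213 CPM and Whamy at 1.63, 1.43 and 1.61 CPM. For MtnA and Whamy the AD libraries were above and the AD + Yip7 libraries below every Control. Whether the position of these genes near each other or on the chromosome of the Yip7 transgenes, which the study placed at the ZH-86Fb site on the right arm of chromosome 3, has a part in their levels was not tested.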

How the data were processed

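Poly(A) RNA from pooled heads of mated females was sequenced as paired-end reads on an Illumina instrument in 12 libraries. The authors deposited 1 table of raw counts per gene, with no normalization. Their processing notes name FastQC, HISAT2 2.1.0, StringTie 1.3.1, DESeq2 1.36.0 and dm6, whereas the study's methods name fastp, HISAT2 and HTSeq-count; the annotation and the strand setting are not given in the sources used here. Reads of near-identical, overlapping or antisense genes may therefore be assigned to the wrong member. The table holds one row per gene, and 3585 genes with low counts were not tested.

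The tests used edgeR 4.0.16 on limma 3.58.1, under R 4.3.3: filterByExpr on the 4 groups, TMM normalization and one quasi-likelihood fit over all 12 samples with 1 term per group. P-values were adjusted over all tested genes by the Benjamini-Hochberg method, and an adjusted p under 0.05 was called. Values are TMM-scaled counts (CPM) of each library, and errors of log2 fold changes are standard errors, with 3 libraries per group. Intervals in figures are 95% intervals. Log2 CPM values used a prior count of 2, and fitted fold changes used edgeR's default prior count. Counting intervals are exact. Copies that share reads were summed before the fit. Named genes were taken from the genes the transgenes carry, the 15 per direction with the smallest adjusted p and the 10 with the largest change among called genes without overlap between groups (the latter with a mean of at least 1 CPM in the higher group), the 4 members of each list with the smallest p, list members that differed from AD, and genes the study names; Ankle2, CG14102, ClC-a, Cyp6a2, Dad, Der-1, Der-2, Dhc16F, Gp93, Herp, Ire1, Jon65Aiv, MtnA, Nplp4, RpL3, Tk, Whamy, crc, ninaE and repo were added after their values were seen. The genes described and the 53 gene lists were chosen with earlier results of these data known. Symbols of 13934 genes matched the Ensembl annotation used for positions.

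On simulated counts for AD + Yip7 vs. Control (10577 genes, 50 changed per fold size), the test recovered 52% of genes changed 1.5-fold, 90% at 2-fold, 98% at 4-fold and 100% at 8-fold, with 6 false calls beside 200 changed genes. The changed genes were drawn from those with a mean of at least 1 CPM, so recovery at lower levels was not measured. Each gene was simulated independently, without shifts shared by many genes of a library, so the false calls do not cover such shifts. Alternatives were DESeq2 1.42.0, fits on the 6 libraries of a comparison, other size factors, other count filters, a replicate block and leaving out each library; leaving out AD libraries was chosen after seeing the data.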

Additional observations from a re-analysis of the deposited data

How the results depend on the processing

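The 1541 genes that differed between AD + Yip7 and Control became 2550 with DESeq2 on the 6 libraries, 538 at a fold of at least 2, and 934 to 1262 when 1 library was left out, with fewest without AD + Yip7 2. Other settings gave 1362 to 2005. The higher genes (966) became 385 at a fold of at least 2 and 598 to 810 with a library left out. The lower genes (575) became 885 with edgeR and 1226 with DESeq2 on the 6 libraries, 153 at a fold of at least 2 and 310 to 452 with a library left out. For AD against Control (2750), a fold of at least 2 left 853, and leaving out a library 1910 to 2649. For AD + Yip7 against AD (191), DESeq2 gave 449 with all 12 and 520 with 6 libraries, a fold of at least 2 left 85, and leaving out a library 83 to 169. For AD + Yip7 against AD + Yip7ΔS (7), DESeq2 gave 135 with all 12 and 131 with 6 libraries, no filter gave 16, and leaving out a library 6 to 15. The replicate numbers did not pair the samples (correlations of same-numbered deviations -0.13, -0.21 and 0.05); with the replicate block 1433 genes differed from Control, 876 higher and 557 lower. Of 312 named genes, 214 were called against Control. The fits on all 12 libraries with another tool, scaling, filter or block lost 0 to 11 of these calls, and leaving out a library lost 43 to 53. The sole reversal was Jon65Aiv without AD + Yip7 2, at -1.03 on the log2 scale, where leaving out other libraries gave up to 7.80. Where calls were lost with fewer libraries, the smaller sample is part of the setting; other causes were not tested. Levels under 0.0795 CPM could not be told from 0.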
